A study of Gallus gallus with 6 samples.

Results

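Genes of fatty acid oxidation, together with receptors of the PPAR family and genes these receptors are known to control, were followed in breeder hens under acute heat, in the mucosa of the jejunum, the middle stretch of the small intestine and its main absorbing surface. The genes were chosen by symbol from a list of 35, of which 31 were found among the 15656 named genes of the expression table; ACADM, ACADVL, HADHB and ETFB were not analysed here. The heat-adapted group consisted of Leuang Hang Kao breeder hens and the heat-sensitive group of SUT breeder hens, all 28 weeks old and all exposed to 36 °C for 6 h. Each group had 3 RNA-seq libraries, and the RNA of 4 hens was pooled for each library. Breed and heat class go together in the labels and cannot be told apart. No unheated hens are among the libraries, so the values describe breeds at the high temperature and not how either breed reacted to it.

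A long fatty acid is burned in steps. An acyl-CoA synthetase activates it, CPT1A loads it onto carnitine, SLC25A20 carries it across the inner mitochondrial membrane and CPT2 returns it to coenzyme A. Beta-oxidation then repeats a dehydrogenation, a hydration, a second dehydrogenation and a thiolysis, with electrons passing through the electron transfer flavoprotein (ETFA and ETFB) and ETFDH to the respiratory chain. Peroxisomes shorten very long and branched chains by a parallel route. PPARA, PPARD and PPARG are fatty acid sensing nuclear receptors that switch on many of these genes, and the absorptive enterocyte, which takes up dietary fat, is known for expressing much of the pathway.

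Levels are given as FPKM, a measure of fragments per length of gene and per library, as deposited by the authors. Per library the deposited read counts added up to 10829957 to 13070796, but they stand in another row order than the gene symbols: across rows, mean FPKM and mean read count had a Spearman's rho of -0.00495. A search by profile over the heat-sensitive libraries found a count row for 111 genes, where searches at 24 deliberately shifted ratios found 5.04 on average. For the genes so matched, log2 of read count over FPKM varied with an SD of 0.727 to 0.958 in the heat-adapted libraries and of at most 0.000652 in the heat-sensitive ones, where the search itself required a small spread. FPKM and read counts with the same heat-adapted label were therefore not proportional to each other, and the sources used here do not say which of them belongs to the labelled libraries. All values below are FPKM or rest on FPKM, except where read counts are named. The tissue label was borne out by enterocyte genes such as FABP2, an intestinal fatty acid binding protein, which averaged 9088 ± 2496 FPKM in heat-adapted hens and 7676 ± 2178 FPKM in heat-sensitive hens (SD, 3 libraries each).

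Most of the pathway was well expressed. The median of the mean FPKM was 62.7 over the 29 genes that passed a filter of a mean FPKM of at least 1, against 12.8 over all 11587 genes that passed it. HADH, the short-chain 3-hydroxyacyl-CoA dehydrogenase of beta-oxidation, had the highest level, with 774, 704 and 643 FPKM in the heat-adapted libraries and 576, 474 and 631 in the heat-sensitive ones. ETFA, a subunit of the flavoprotein that collects electrons from the acyl-CoA dehydrogenases, followed with 323, 314 and 354 FPKM in the heat-adapted libraries and 286, 208 and 340 in the heat-sensitive ones. Heat-sensitive replicate 2 was the lowest library for both genes, and the groups overlapped for ETFA only. ACAD9, an acyl-CoA dehydrogenase also needed to assemble respiratory complex I, and ACADL, the long-chain acyl-CoA dehydrogenase, came next at means over all 6 libraries of 239 and 235 FPKM, which differ by less than the spread between libraries. A mean of at least 100 FPKM was reached by 8 genes in all. The receptors were far lower, between 12.0 FPKM for PPARD and 17.3 FPKM for PPARA, and the coactivator PPARGC1A was at 2.08 FPKM.

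**Figure D1:**
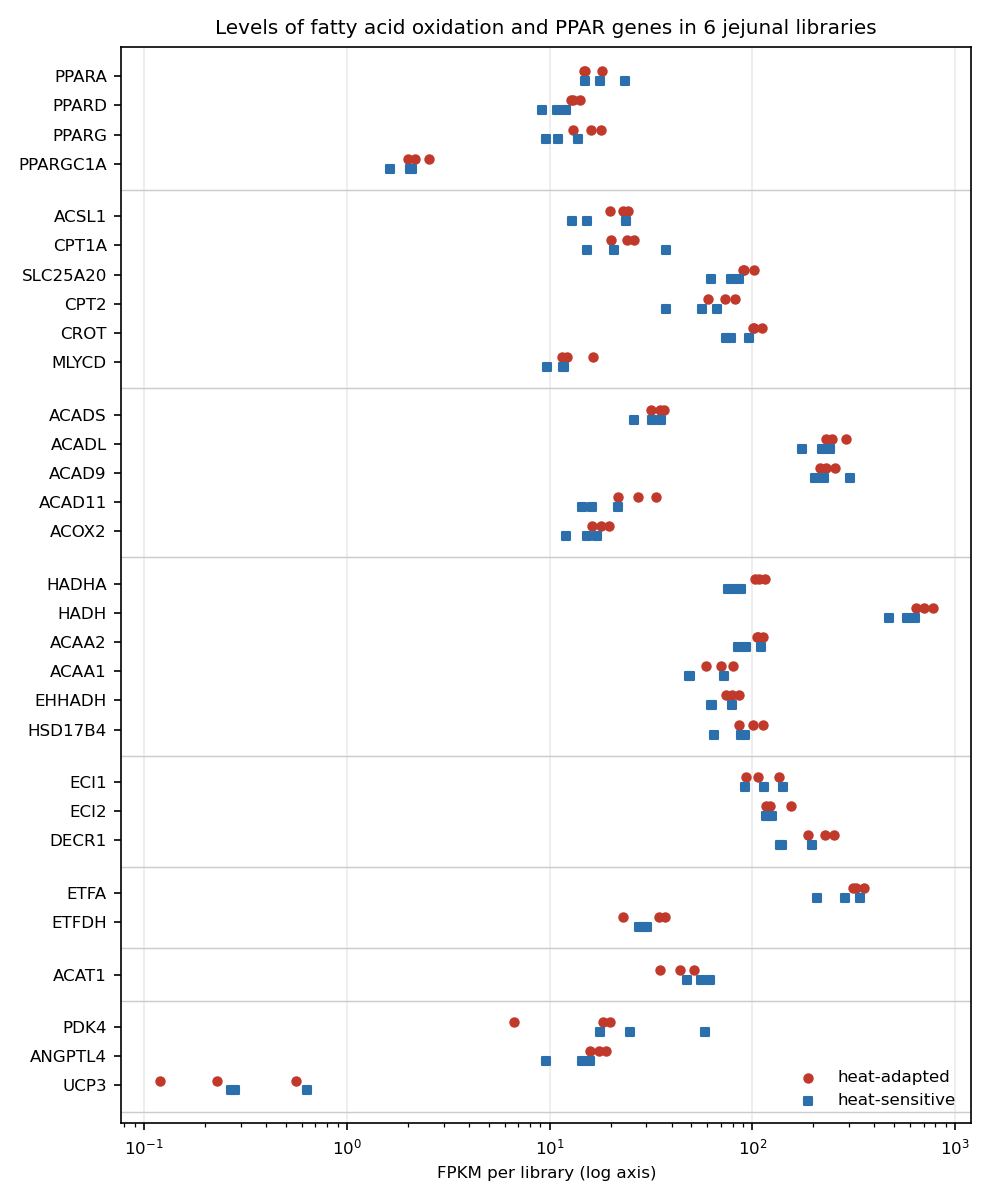
FPKM of 30 genes in each library on a log axis, with heat-adapted libraries as red circles above heat-sensitive ones as blue squares, and lines dividing the roles described in the text. HADH stands highest and UCP3 lowest; BDH1, listed at 0 in all libraries, cannot be drawn on this axis.

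UCP3 and BDH1 did not pass the filter and were not tested. UCP3, a mitochondrial carrier known as a PPAR target in muscle, had 0.23, 0.12 and 0.56 FPKM in the heat-adapted libraries and 0.28, 0.64 and 0.27 in the heat-sensitive ones, so that the groups overlapped. BDH1, which interconverts the ketone bodies acetoacetate and beta-hydroxybutyrate, was listed at 0 in every library. In RefSeq's list of chicken genes, made for assembly GRCg7b and not for the build of the files, BDH1 appears only as a synonym of BDH1A, and the expression table has rows of their own for BDH1A and BDH1B, which were looked up after the value of BDH1 was seen. BDH1A averaged 114 ± 3.28 FPKM in heat-adapted hens and 122 ± 17.3 FPKM in heat-sensitive hens, and BDH1B averaged 5.74 ± 0.937 FPKM in heat-adapted hens and 5.12 ± 0.945 FPKM in heat-sensitive hens (SD, 3 libraries each). The value of 0 thus belongs to the row named BDH1 and not to the enzyme family. How reads shared by similar genes were counted is not stated, so their split is uncertain.

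No gene of the pathway passed the threshold, while most stood slightly higher in the heat-adapted libraries. With limma on log2(FPKM + 1) and adjustment over all 11587 genes, 0 of the 29 tested genes were higher and 0 lower at an adjusted p below 0.05, where 0.0604% of all genes were higher and 0.0345% lower; the lowest adjusted p was 0.181. At an unadjusted p below 0.05, 5 of the 29 were higher and 0 lower, against 7.13% and 10.9% of all genes. Of the 29, 24 had a positive log2 difference, heat-adapted minus heat-sensitive, where 41.7% of all genes did, and 5 had a negative one, against 58.3% of all genes. The groups did not overlap in 6 of the 29, with 6 higher and 0 lower in heat-adapted libraries, where 9.00% of all genes were higher and 12.9% lower without overlap. The median log2 difference was 0.27 over the 29 genes and -0.06 over all genes. Genes of a shared pathway are not independent replicates.

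Heat-sensitive replicate 2 weighed heavily on these numbers. It held the lowest value of 17 of the 29 genes, 58.6%, against 19.1% of all genes. Without it, 23 of the 29 genes were still higher in the heat-adapted libraries, the median log2 difference was 0.16, and 1 gene instead of 5 was at an unadjusted p below 0.05. In that fit 1295 of all 11587 genes were at this p, against 2086 with every library kept. With heat-adapted replicate 1 dropped, 2 of the 29 reached it (1 higher, and ACAT1 lower), against 1123 of all genes. Leaving out heat-adapted replicate 2 gave 2, against 1735, and replicate 3 of that group 4, against 2482. Leaving out heat-sensitive replicate 1 gave 5, against 1527, and replicate 3 of that group 8, against 2428. Only dropping heat-sensitive replicate 1 or 3 put the share of the 29 above that of all genes. Over all genes, overlap was rarer with any single library left out. Without heat-adapted replicate 3 the groups were apart in 12 of the 29 genes (41.4%) and in 40.2% of all genes. Dropping heat-sensitive replicate 1 gave 10 (34.5%), against 3478 of all 11587 genes, and dropping heat-sensitive replicate 3 gave 15 (51.7%), against 40.8%. Dropping heat-sensitive replicate 2 gave 6 (20.7%), below the 27.5% of all genes. Heat-adapted replicates 1 and 2 each gave 9 (31.0%) when dropped, against 26.4% and 33.0% of all genes. With all libraries the shares were 20.7% and 21.9%, counting both directions. Leaving out heat-sensitive replicate 2 made the difference of 14 of the 29 genes smaller by over 1.5 times or turned its sign. The baseline of all genes leaned on heat-adapted replicate 1, which was lowest in 34.5% of all genes and in 3.45% of the 29. Without heat-adapted replicate 1, 5455 of all 11587 genes were higher, against 4835 with every library kept. The median was then -0.02 over all genes and 0.27 over the 29 genes.

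Scaling moved the baseline. The FPKM of all 15656 named genes added up to 779174 to 884625 in the heat-adapted libraries and 892744 to 897549 in the heat-sensitive ones, without overlap. With FPKM rescaled to TPM, all genes together had a median log2 difference of 0.05, and then 11 of the 29 genes were at an unadjusted p below 0.05, all higher in heat-adapted libraries, while 0 passed after adjustment. Among all genes with an unadjusted p below 0.05, 1342 of 2043 were higher after this rescaling, against 826 of 2086 in FPKM. The median of the 29 genes lay above that of all genes by 0.33 in FPKM, 0.34 in TPM, 0.33 with median-of-ratios scaling and 0.29 with quantile normalization. TPM and median-of-ratios scaling multiply each whole library by a single factor, which moves both medians nearly alike. The near equality of the FPKM, TPM and median-of-ratios values therefore follows from the method and is no separate check.

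**Figure D2:**
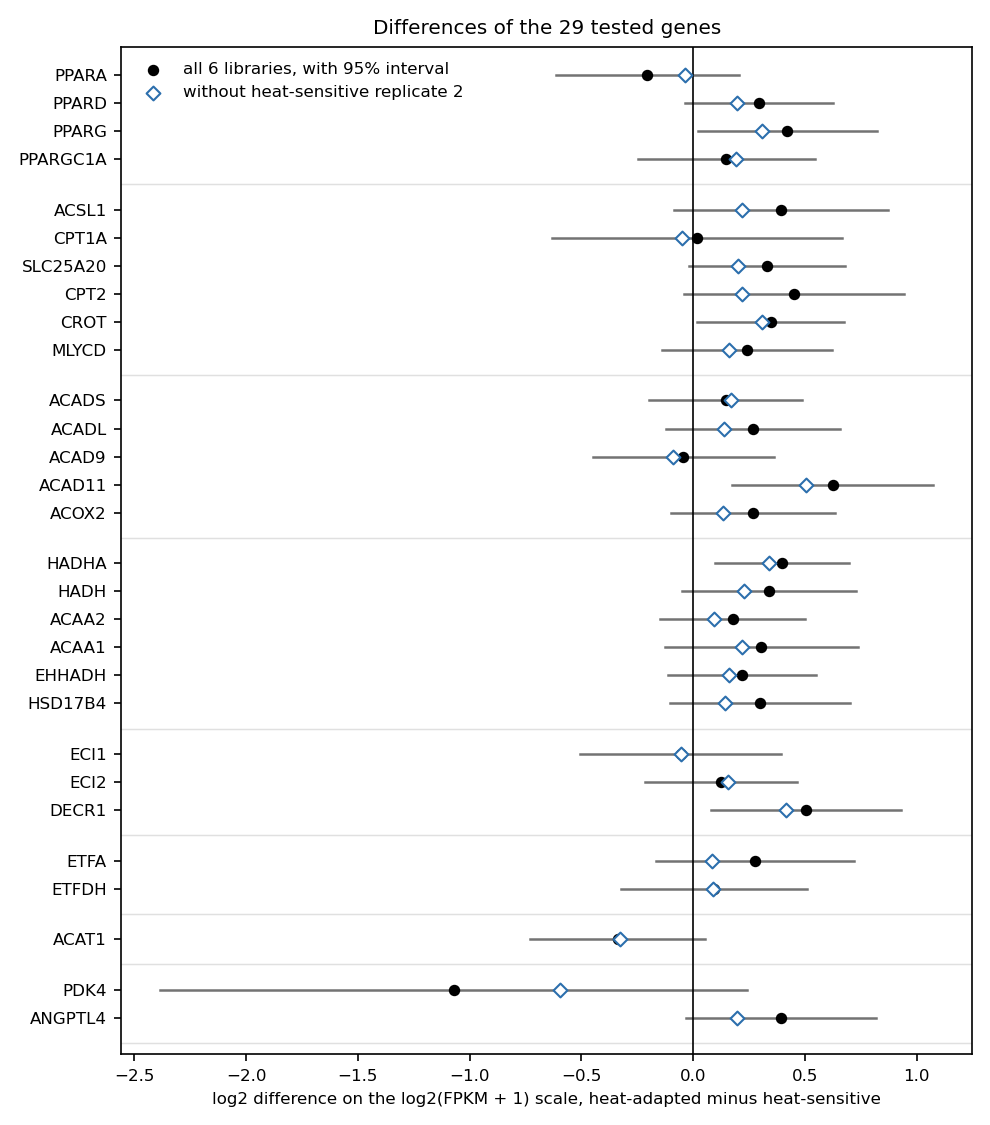
Differences in log2(FPKM + 1), heat-adapted minus heat-sensitive, of the 29 tested genes in the order of their roles, as black points with 95% limma intervals, and as open diamonds without heat-sensitive replicate 2. Most points lie right of 0, the widest interval is that of PDK4, and most diamonds lie closer to 0 than the points.

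Among the regulators, the 3 receptors did not lean the same way. PPARA, the receptor best known for driving fatty acid oxidation, had 14.9, 18.1 and 14.7 FPKM in the heat-adapted libraries and 15.0, 23.5 and 17.7 in the heat-sensitive ones. Heat-sensitive replicate 2 was the highest of all libraries and the groups overlapped, with a log2 difference of -0.21 (95% interval -0.61 to 0.20, limma adjusted p = 0.577); without that library it was -0.04. PPARG, the receptor best known from fat cells and also expressed in gut epithelium, had 16.1, 17.97 and 13.04 FPKM in the heat-adapted libraries, against 13.9, 9.57 and 11.1 in the heat-sensitive ones. Only heat-adapted replicate 3 lay within the range of the heat-sensitive libraries, and the log2 difference was 0.42 (SE 0.18, limma adjusted p = 0.261). PPARD, the most widely expressed member of the family, had 12.8, 12.99 and 14.1 FPKM in the heat-adapted libraries and 10.9, 9.18 and 12.1 in the heat-sensitive ones. Its groups did not overlap, but the lowest heat-adapted and highest heat-sensitive libraries lay close together and the difference of 0.29 did not pass (SE 0.15, limma adjusted p = 0.324). PPARGC1A, which docks on the receptors and raises mitochondrial gene expression, had 2.55, 2.01 and 2.16 FPKM in the heat-adapted libraries and 2.04, 2.10 and 1.63 in the heat-sensitive ones, with overlapping groups (log2 difference 0.15, SE 0.18).

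**Figure D3:**
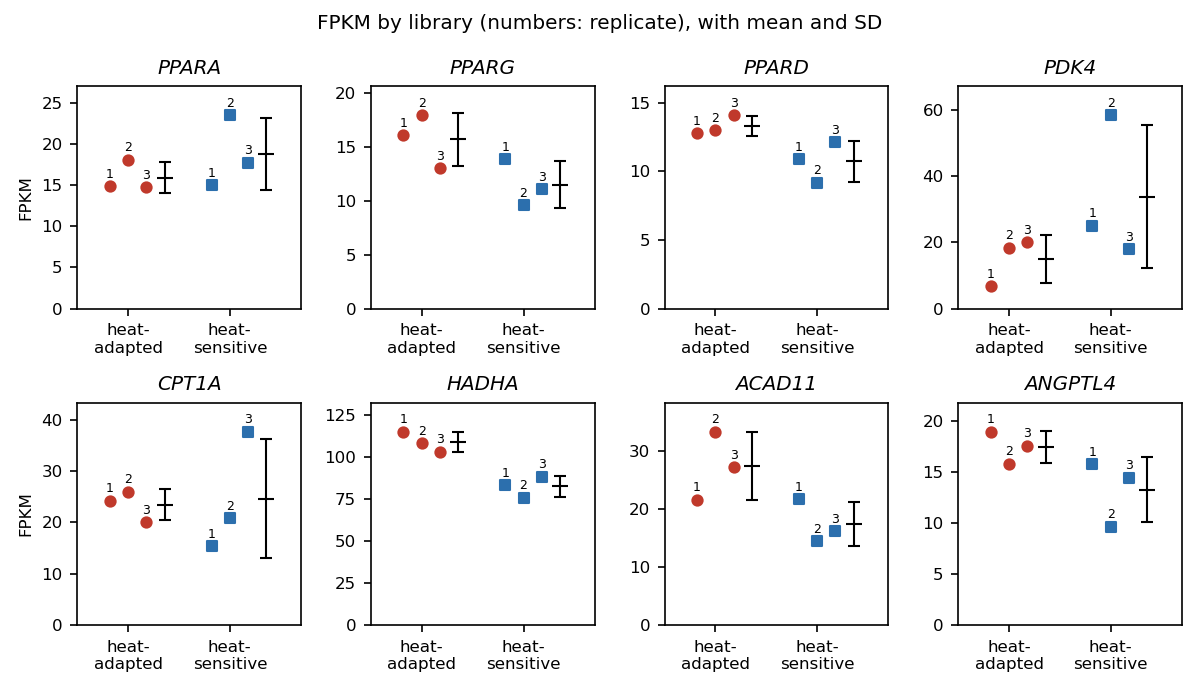
FPKM of 8 genes in each library (numbers give the replicate) with the mean and SD beside each group, heat-adapted in red on the left and heat-sensitive in blue on the right, each axis starting at 0. The heat-adapted libraries lie above all heat-sensitive ones for PPARD, HADHA and ANGPTL4, and the highest PDK4 and PPARA values are those of heat-sensitive replicate 2.

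Of the 6 genes of activation and the carnitine shuttle, CPT1A had the smallest difference, and the others were higher in the heat-adapted libraries on average. None passed the threshold, and whether CPT1A differed from the others was not tested. CPT1A, the step at which entry is controlled, had 24.2, 25.98 and 20.1 FPKM in the heat-adapted libraries and 15.3, 20.8 and 37.7 in the heat-sensitive ones. The heat-sensitive libraries spanned the whole heat-adapted range, and the log2 difference of 0.02 had a 95% interval of -0.63 to 0.67; it turned negative, between -0.26 and -0.01, when replicate 1 or 2 of either group was left out. SLC25A20, the carnitine-acylcarnitine carrier, had 91.5, 102 and 90.1 FPKM in the heat-adapted libraries, against 78.6, 62.7 and 85.7 in the heat-sensitive ones, without overlap (log2 difference 0.33, SE 0.15, limma adjusted p = 0.300, and 0.20 without heat-sensitive replicate 2). CPT2 had 82.5, 73.0 and 60.4 FPKM in the heat-adapted libraries and 56.2, 37.5 and 66.7 in the heat-sensitive ones. Its groups overlapped through heat-adapted replicate 3 and heat-sensitive replicate 3, and the log2 difference of 0.45 was 0.22 without heat-sensitive replicate 2. CROT, which loads medium-chain products of the peroxisome onto carnitine for the mitochondrion, had 101, 112 and 102 FPKM in the heat-adapted libraries and 74.5, 78.2 and 96.0 in the heat-sensitive ones. It was among the 6 genes without overlap, at a log2 difference of 0.35 (SE 0.15, limma adjusted p = 0.259). ACSL1, an acyl-CoA synthetase, and MLYCD, which removes the CPT1 inhibitor malonyl-CoA, had overlapping groups and log2 differences of 0.39 and 0.24, which were 0.22 and 0.16 without heat-sensitive replicate 2.

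Among the 29 tested genes, CPT2 was also 1 of 2 whose read counts could be found. Its row held 2113, 2172 and 2397 reads in the heat-adapted columns and 1513, 1120 and 2022 in the heat-sensitive ones. The log2 difference of reads scaled to each library's total was 0.42 and came to 0.18 without heat-sensitive replicate 2, against FPKM values of 0.45 and 0.22. The scaled groups overlapped, as in FPKM, since heat-sensitive replicate 3 lay above heat-adapted replicate 1. Both measures hold the same heat-sensitive profile, by which the row was found, so only the heat-adapted values differ between them. Which of these belong to the labelled libraries is not known, so they cannot be taken as a second measurement. Since searches at shifted ratios also found rows, a single match can be wrong.

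For the first dehydrogenation, ACAD11, an acyl-CoA dehydrogenase active on long chains and on hydroxylated fatty acids, had the smallest p of the 29 tested genes. It had 21.7, 33.4 and 27.3 FPKM in the heat-adapted libraries and 21.7, 14.5 and 16.2 in the heat-sensitive ones. Heat-adapted replicate 1 and heat-sensitive replicate 1 were nearly equal and the other libraries lay apart, giving a log2 difference of 0.62 (95% interval 0.17 to 1.07, limma adjusted p = 0.181). ACAD9 had 215, 256 and 230.3 FPKM in the heat-adapted libraries and 204, 225 and 303 in the heat-sensitive ones, and its log2 difference of -0.04 turned positive with TPM and with median-of-ratios scaling. ACADL, ACADS, the short-chain enzyme, and ACOX2, the peroxisomal oxidase of branched chains and bile acid intermediates, had overlapping groups and log2 differences of 0.27 for ACADL, 0.14 for ACADS and 0.27 for ACOX2. Without heat-sensitive replicate 2 these were 0.14, 0.17 and 0.13.

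The later steps of the spiral were higher in the heat-adapted libraries for all 6 tested genes, with log2 differences between 0.18 and 0.40. HADHA, a subunit of the trifunctional protein that handles long chains, had 115, 108 and 103 FPKM in the heat-adapted libraries, against 83.1, 75.6 and 88.2 in the heat-sensitive ones. All 3 heat-adapted libraries lay above the heat-sensitive range, and the log2 difference of 0.40 did not pass after adjustment (SE 0.13, limma adjusted p = 0.192); it was 0.34 without heat-sensitive replicate 2. HADH, given above, was likewise without overlap (log2 difference 0.34, SE 0.17, limma adjusted p = 0.331), although heat-adapted replicate 3 and heat-sensitive replicate 3 lay close together and the difference was 0.23 without heat-sensitive replicate 2. The mitochondrial thiolase ACAA2, the peroxisomal thiolase ACAA1 and the peroxisomal bifunctional enzymes EHHADH and HSD17B4 had overlapping groups and log2 differences of 0.18, 0.31, 0.22 and 0.30. Without heat-sensitive replicate 2 these were 0.09, 0.22, 0.16 and 0.14.

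Of the enzymes for unsaturated chains, DECR1, the mitochondrial dienoyl-CoA reductase, had 254, 188 and 228 FPKM in the heat-adapted libraries and 141, 138 and 196 in the heat-sensitive ones. Only heat-sensitive replicate 3 reached the heat-adapted range, and the log2 difference was 0.51 (95% interval 0.08 to 0.93, limma adjusted p = 0.222). The enoyl-CoA isomerase ECI1 had 107, 93.1 and 135 FPKM in the heat-adapted libraries and 92.6, 115 and 142 in the heat-sensitive ones. Its groups overlapped, and the log2 difference of -0.06 was positive with TPM and with median-of-ratios scaling. The groups of the related ECI2 overlapped too, with a log2 difference of 0.12. ETFA and ETFDH, which pass electrons on to the respiratory chain, had log2 differences of 0.28 and 0.09, and for ETFA 0.08 without heat-sensitive replicate 2. ACAT1, the mitochondrial acetoacetyl-CoA thiolase that takes part in ketone body and isoleucine metabolism, was lower on average in the heat-adapted libraries, at 51.7, 35.2 and 43.9 FPKM, against 47.4, 55.7 and 62.0 in the heat-sensitive ones. Heat-adapted replicate 1 lay within the heat-sensitive range, and the difference of -0.34 did not pass (SE 0.17, limma adjusted p = 0.337).

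The receptor targets PDK4 and ANGPTL4 lay on opposite sides of 0, neither past the threshold. PDK4 is a kinase that blocks the conversion of pyruvate to acetyl-CoA and so favours fat as fuel. It had 6.71, 18.4 and 19.97 FPKM in the heat-adapted libraries and 25.0, 58.4 and 17.8 in the heat-sensitive ones. Among the 29 tested genes it had the lowest log2 difference, -1.07, and also the widest interval (-2.39 to 0.24, limma adjusted p = 0.353). Heat-adapted replicate 1 was by far the lowest library and heat-sensitive replicate 2 by far the highest. Leaving out heat-adapted replicate 1 gave a difference of -0.61 and leaving out heat-sensitive replicate 2 one of -0.60; the other libraries gave -1.19 to -1.43. ANGPTL4, a secreted inhibitor of lipoprotein lipase, had 19.0, 15.8 and 17.6 FPKM in the heat-adapted libraries and 15.8, 9.64 and 14.5 in the heat-sensitive ones. Heat-adapted replicate 2 and heat-sensitive replicate 1 were nearly equal although the groups did not overlap, and the difference was 0.39 (SE 0.19, limma adjusted p = 0.307) and 0.19 without heat-sensitive replicate 2.

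The count row found for PDK4 showed a larger gap. It held 293, 301 and 140 reads in the heat-adapted columns and 994, 2574 and 797 in the heat-sensitive ones, so that the groups lay apart. Scaled to each library's total reads the log2 difference was -2.60, and -2.11 without heat-sensitive replicate 2. FPKM and read counts thus gave the same direction and a different size. As for CPT2, the heat-sensitive profile was shared through the search, and the heat-adapted reads cannot be taken as a second measurement. The scaled reads had no 1 added before the logarithm. With 0.1 instead of 1 added to FPKM, the FPKM difference was -1.13. Which library was lowest also differed, heat-adapted replicate 1 in FPKM and heat-adapted replicate 3 in the read counts.

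The rest of the pathway was read from a longer list of 135 related genes, of which 122 were in the table and 113 were tested. None passed (0 higher and 0 lower at a limma adjusted p below 0.05), and at an unadjusted p below 0.05 there were 27 of 113 higher and 4 lower, where 7.13% of all genes were higher and 10.9% lower. The 24 tested genes of peroxisomal oxidation had 20 higher in the heat-adapted libraries, with 9 higher and 2 lower without overlap, and a median log2 difference of 0.32, where 41.7% of all genes were higher, 9.00% higher without overlap and 12.9% lower without overlap. Without heat-sensitive replicate 2, 18 of these were higher and their median was 0.27. Against the same shares of all genes, the 24 genes of mitochondrial oxidation and carnitine supply had 15 higher, with 7 higher and 0 lower without overlap. Their median was 0.18, which was 0.07 without heat-sensitive replicate 2 and 0.30 with TPM. The 6 ketone body genes had 2 higher and a median of -0.03, which was 0.09 with TPM. The 28 PPAR partners, coactivators and energy sensors had 12 higher and a median of -0.06, which was 0.05 without heat-sensitive replicate 2 and 0.05 with TPM. The 31 further PPAR targets had 17 higher and a median of 0.07, and 21 higher and a median of 0.19 with TPM. With TPM, 6589 of all 11587 genes were higher and their median was 0.05. Without overlap, the ketone body genes had 0 higher and 0 lower. The PPAR partners, coactivators and energy sensors had 6 higher and 2 lower, and the further PPAR targets 5 higher and 1 lower. Over all 113 genes, 66 were higher and the median was 0.11.

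The smallest p of the longer list was that of AMACR, a racemase that prepares branched fatty acids and bile acid intermediates for peroxisomal oxidation. AMACR had 20.1, 19.7 and 19.3 FPKM in the heat-adapted libraries, against 14.2, 9.95 and 11.4 in the heat-sensitive ones (log2 difference 0.70, SE 0.15, limma adjusted p = 0.103). PHYH, which starts the alpha-oxidation of phytanic acid, a branched fatty acid derived from chlorophyll, had 82.3, 112 and 96.2 FPKM in the heat-adapted libraries and 61.0, 54.5 and 69.0 in the heat-sensitive ones (log2 difference 0.64, SE 0.16, limma adjusted p = 0.120). In both genes every heat-adapted library was above every heat-sensitive one, and without heat-sensitive replicate 2 the differences were 0.59 and 0.56. HACL1, which cleaves the phytanic acid product, was picked after its values were seen. HACL1 averaged 14.4 ± 1.08 FPKM in heat-adapted hens and 10.2 ± 1.45 FPKM in heat-sensitive hens (SD, 3 libraries each). Opposite to these, DECR2 and PECR, peroxisomal reductases, were lower without overlap. DECR2 had 35.3, 32.5 and 32.3 FPKM in the heat-adapted libraries and 41.5, 40.9 and 47.5 in the heat-sensitive ones (log2 difference -0.36, limma adjusted p = 0.208), and PECR had 41.0, 78.3 and 61.1 FPKM in the heat-adapted libraries and 93.6, 82.4 and 86.2 in the heat-sensitive ones (log2 difference -0.58, limma adjusted p = 0.227). Peroxisomal genes thus included some on either side.

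Further genes of the longer list without overlap were ACSF2, a mitochondrial acyl-CoA synthetase, MCEE, which handles the propionate left by odd chains, ME1, which makes NADPH for lipid synthesis, and PRKAB1, a subunit of the energy sensor AMPK. ACSF2 had 85.5, 81.9 and 80.6 FPKM in the heat-adapted libraries and 55.4, 36.1 and 59.2 in the heat-sensitive ones (log2 difference 0.74, limma adjusted p = 0.128). Its count row, found by the same search, gave a log2 difference of 0.42, and 0.20 without heat-sensitive replicate 2, and its scaled counts overlapped. Count rows were also found for CRAT, a carnitine acyltransferase, SCP2, a peroxisomal thiolase and lipid carrier, and SLC27A4, a fatty acid transport protein. Their scaled counts overlapped, with log2 differences of 0.24, -0.05 and 0.27 in counts and of 0.24, 0.08 and 0.54 in FPKM. Without heat-sensitive replicate 2 the count values were -0.01, -0.31 and 0.08. The log2 differences of MCEE, ME1 and PRKAB1 were 0.61, 0.61 and 0.50. The pantetheinase gene VNN1, a target of PPARA known from mouse liver, was the other way, at 3.63, 3.06 and 3.46 FPKM in the heat-adapted libraries and 4.76, 5.88 and 7.87 in the heat-sensitive ones (log2 difference -0.69, limma adjusted p = 0.152). SIRT5, a mitochondrial deacylase, and PRKAG1, another AMPK subunit, were also lower without overlap, by log2 differences of -0.35 and -0.12 (limma adjusted p = 0.304 and 0.677). Their groups nearly touched. The highest heat-adapted and lowest heat-sensitive libraries had 24.59 and 24.62 FPKM for SIRT5, and 70.94 and 71.63 FPKM for PRKAG1.

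Marker lists of cell types were also unequal between the groups. Of 23 enterocyte markers tested, 21 were higher in the heat-adapted libraries (median 0.50) and none was at 0, and their summed FPKM was 16816 to 23287 in heat-adapted and 11229 to 18229 in heat-sensitive libraries. The most abundant of them, FABP2, EPCAM and APOA4, had log2 differences of 0.25, 0.22 and 0.23, and of -0.0012, 0.21 and -0.29 without heat-sensitive replicate 2, while the median of the list was then 0.49. FABP2 stands on both this list and that of further PPAR targets. Markers of proliferating crypt cells were lower in 21 of 21 (median -0.90), and in 20 of 21 with TPM (median -0.81). They summed to 380 to 507 FPKM in heat-adapted and 690 to 930 in heat-sensitive libraries. Their log2 differences included -0.40 for OLFM4, -1.11 for CDK1 and -1.13 for UBE2C. The score of a list in a library, the median of its centred log2 values, was lowest in heat-sensitive replicate 2 both for enterocyte markers, at -0.63, and for the 29 oxidation genes, at -0.32. Here and below, the term oxidation genes stands for all 29 tested genes, receptors and PPAR targets included. Among the heat-sensitive libraries, replicate 3 had the highest score for both lists, at -0.04 and 0.04. Among heat-adapted replicates 1, 2 and 3, replicate 3 was lowest for both lists, and replicates 1 and 2 stood in opposite order. Enterocyte markers scored 0.44, 0.35 and 0.03 there, and the oxidation genes 0.12, 0.14 and 0.07. In bulk tissue, fewer cells of a type and less RNA per cell cannot be told apart, and the part of the cell makeup in the oxidation genes' differences was not tested.

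Markers of other tissue layers were mostly lower in the heat-adapted libraries. Smooth muscle markers were lower in 14 of 14 tested genes (median -1.07), summing to 424 to 878 FPKM in heat-adapted and 952 to 1766 FPKM in heat-sensitive libraries, with -1.12 for CSRP1, -0.62 for TPM2 and -1.20 for ACTG2. Fibroblast markers were lower in 11 of 11 (median -0.48, and -0.27 without heat-sensitive replicate 2), summing to 327 to 522 FPKM in heat-adapted and 434 to 832 FPKM in heat-sensitive libraries. Endothelial markers were lower in 9 of 9 (median -0.34), and in 8 of 9 with TPM (median -0.24). They summed to 42.5 to 77.6 FPKM in heat-adapted and 60.8 to 96.7 FPKM in heat-sensitive libraries. For B and plasma cells, 11 of 11 markers were lower (median -0.63), summing to 13301 to 20568 FPKM in heat-adapted and 28118 to 31590 FPKM in heat-sensitive libraries, with -0.81 for IGLL1 and -0.71 for JCHAIN. By score, heat-sensitive replicate 2 was highest for smooth muscle, fibroblast and endothelial markers, at 0.83, 0.68 and 0.38. Heat-adapted replicate 1 was lowest for these lists, at -1.36, -0.56 and -0.58. For B and plasma cell markers heat-sensitive replicate 1 was highest, at 0.66, and heat-adapted replicate 1 lowest, at -0.46. The part of these layers in the oxidation genes' differences was likewise not tested. T cell, macrophage and goblet or endocrine markers had medians of -0.26, -0.13 and -0.17, of -0.14, -0.0054 and -0.0429 with TPM, and of -0.40, -0.17 and -0.27 without heat-sensitive replicate 2. The list of adipocyte markers, the cells PPARG is best known from, had 4 of 6 genes lower (median -0.24), but its most abundant genes CIDEC and PCK1 were higher, at log2 differences of 0.94 and 0.71, with -0.22 for ADIPOR1. Without heat-sensitive replicate 2 CIDEC was at 0.44 and PCK1 at 0.34. CIDEC, FABP4, LIPE and PLIN1 stand both there and among the PPAR targets. Of the liver and pancreas markers, albumin was at 53.4 FPKM in heat-adapted replicate 2 and between 0.48 and 0.81 in the other 5 libraries. The 21 tested genes of the tricarboxylic acid cycle, the next stage of mitochondrial fuel use, were higher in 18, against 41.7% of all genes, with a median of 0.16 and 2 higher without overlap, against 9.00% of all genes.

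**Figure D4:**
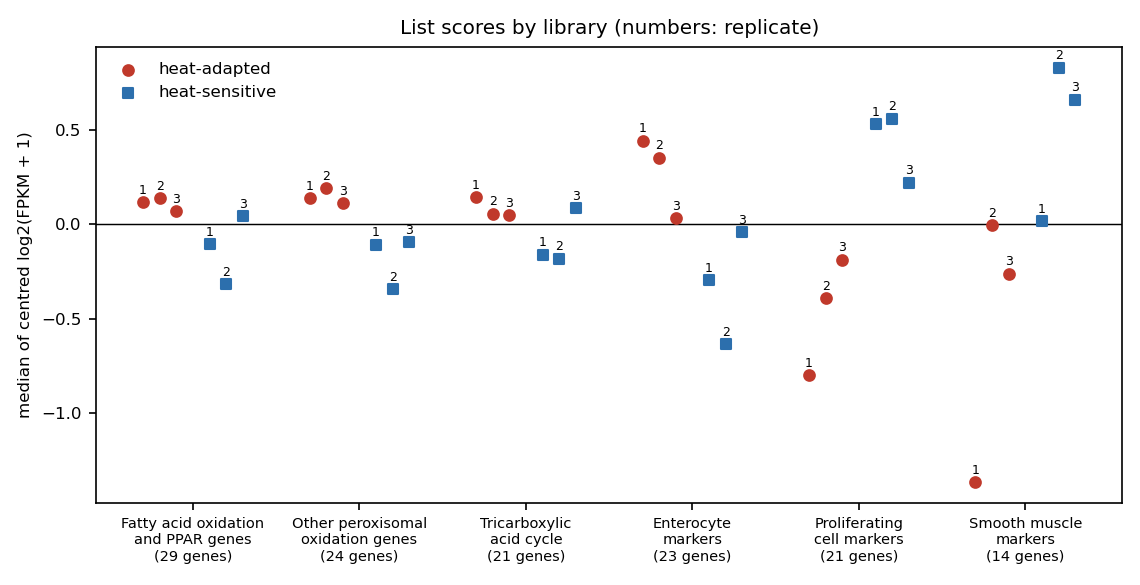
Score of each list in each library, the median over its tested genes of log2(FPKM + 1) centred on the gene's mean over 6 libraries (numbers give the replicate; heat-adapted in red on the left of each pair, heat-sensitive in blue on the right). The 29 oxidation genes include the receptors and PPAR targets. Their scores lie between 0.07 and 0.14 in heat-adapted libraries and between -0.32 and 0.04 in heat-sensitive ones. Enterocyte markers order the heat-sensitive libraries the same way. Among the heat-adapted libraries replicate 3 is lowest for both lists, and replicates 1 and 2 stand in opposite order.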

How the data were processed

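Total RNA of jejunal mucosa was sequenced as 3 libraries per group, each a pool of 4 hens, per the labels' protocols. The submitters' processing notes name cutadapt 1.9.1, HISAT2 2.0.1, HTSeq 0.6.1, DESeq2 and build GRCg6a; annotation, strand setting and handling of shared reads are not stated. The deposited FPKM values are rounded by the authors to 2 decimals. The authors' deposited read counts are treated as estimated counts, since 13.2% to 13.7% per library are not whole; they served for totals and for the search by profile (FPKM of at least 10 and counts of at least 50 in each heat-sensitive library, log2 ratios within 0.002, no other row within 0.02). Of 15675 rows with a symbol, 19 held a date and were left out.

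Tests used limma 3.58.1 under R 4.3.3 (trend, robust, no block) on log2(FPKM + 1) of genes averaging 1 FPKM or more, 2-sided, with Benjamini-Hochberg adjustment over 11587 genes and a threshold of 0.05. Differences on this scale understate changes of low genes. The fit was tested on simulated data. Summaries used pandas 2.3.3 and SciPy 1.17.1 in Python 3.11.15. RefSeq's GRCg7b table served for names only and held 30 of the 31 symbols directly and BDH1 as a synonym. The members and lists were chosen with earlier results of these data known. Values in every library are given for the 8 genes of smallest p per direction, the receptors, PPARGC1A, CPT1A, PDK4, ANGPTL4, UCP3 and the genes of highest mean; of other pathway genes, up to 6 per direction of smallest p without overlap are named, and of marker lists the most abundant genes. The alternatives were the pseudocount, filter, scaling, variance model, a replicate block and leaving out each library. PCR reads carry no molecular identifiers in the labels, and pools, not hens, are the replicates.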

Additional observations from a re-analysis of the deposited data

How the results depend on the processing

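In every setting tried, 0 of the tested oxidation genes, receptors and PPAR targets included, passed after adjustment with limma. Between 23 and 26 of them were higher in heat-adapted libraries, with 26 in TPM and with median-of-ratios scaling. Of all 11587 genes, 4835 were higher as reported, 6589 with TPM and 5784 with median-of-ratios scaling. When single libraries were left out, 4599 to 5455 of all genes were higher. Over the 15 alternatives the median log2 difference of the oxidation genes kept its sign, with 0.16 to 0.37 when single libraries were left out. The variance model and the replicate block leave this median unchanged by design. The number of these genes at an unadjusted p below 0.05, 5 as reported, was 11 with TPM, 9 with median-of-ratios scaling, 3 without trend and robust estimation, and 1 to 8 when single libraries were left out. Of all 11587 genes, 2086 were at that p as reported, 2043 with TPM and 2134 with median-of-ratios scaling. There were 2061 without trend and robust estimation, and 1123 to 2482 when single libraries were left out. The number of oxidation genes without overlap was 14 with TPM (48.3%, against 2551 of all 11587 genes), and 6 to 15 when single libraries were left out (20.7% to 51.7%, against 26.4% to 40.8% of all genes). As reported, the share was 20.7%, below the 21.9% of all genes, and the pseudocounts, variance model and replicate block left both unchanged. It was also below that of all genes with a mean of at least 5 FPKM (21.4% against 22.5%). The same held without heat-sensitive replicate 2 (20.7% against 27.5%) and without heat-adapted replicate 2 (31.0% against 33.0%).

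Over all genes, 11 were called as reported, 17 with a pseudocount of 0.1, 20 with 0.5, 7 with no filter, 7 when genes had to average 5 FPKM, 38 with TPM, 20 with median-of-ratios scaling, 46 with the replicate block, and 6 to 64 when single libraries were left out (6 without heat-adapted replicate 2, 64 without heat-adapted replicate 3). The median of the longer pathway list was 0.0658 with no filter, 0.216 with TPM, 0.161 with median-of-ratios scaling, and 0.077 to 0.157 when single libraries were left out.

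Genes near 0 changed sign, with none called. ACAD9 was at 0.0792 with TPM, 0.0211 with median-of-ratios scaling and -0.16 to 0.12 when single libraries were left out. ECI1 was at 0.0658 with TPM, 0.00799 with median-of-ratios scaling and -0.21 to 0.10 when single libraries were left out. Leaving out single libraries gave -0.26 to 0.36 for CPT1A and -0.0379 to 0.30 for ETFDH. The cause was not tested.

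The labels do not say whether replicate numbers pair the libraries, and the values at hand cannot decide it. Deviations from group means correlated at -0.16, 0.11 and -0.19 for same-numbered libraries 1, 2 and 3. For libraries of different number the correlations ran from -0.19 to 0.34. With the replicate block 4 oxidation genes were at an unadjusted p below 0.05, 3 of them higher, against 1701 of all 11587 genes, 694 of them higher. With 3 libraries per group, the 95% interval of CPT1A spanned -0.63 to 0.67, so its values leave room for a difference of either sign within that range. The size of difference that could be detected was not computed.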
